A study of Mus musculus with 35 samples.

Results

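Collagen genes were followed through the induction of pluripotency in mouse embryonic fibroblasts. They were taken as every gene whose symbol is Col, a type number, the letter a and a chain number, and whose level reached 1 TPM (a unit of RNA level that gives each transcript's share of its library, corrected for length) in at least 3 of the 35 libraries. Of 44 such symbols among the 54752 genes of the tables, 37 met the rule. Just inside it stood Col10a1, at 1 TPM or more in 4 libraries, and Col22a1 in 9. Just outside stood Col6a4 and Col17a1 in 2 libraries each and Col28a1 in 1, while Col6a6, Col19a1, Col24a1 and Col25a1 were also left out. The 37 members are 10 fibrillar collagens, 6 basement membrane chains, 8 fibril-associated collagens (FACITs), 4 beaded filament chains, 3 short-chain network collagens, 2 multiplexins, 2 transmembrane collagens, and Col7a1 and Col26a1.

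Collagens are secreted or membrane-bound proteins in which 3 chains wind into a helix. Fibrillar types I, III and V build the fibers that fibroblasts lay down, type IV forms the sheet under epithelia, type VI makes fine beaded filaments around cells, and FACITs decorate fibrils. Chains are hydroxylated and folded in the endoplasmic reticulum, exported, trimmed by proteases outside the cell and bound by integrin and discoidin domain receptors. In reprogramming, the fibroblast program of matrix genes is known to be shut off as cells acquire epithelial and then pluripotent features.

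The fibroblasts came from E13.5 embryos, were at passage 2 and stemmed from males with an Oct4-GFP reporter allele (CBA/CaJ × C57BL/6J) crossed to females of a 129 strain. They were infected with retroviruses for 48 hours and then kept in iCD3, an induction medium, with Rock inhibitor for up to 7 days. By their titles, 4 leave-out arms received 3 of the factors Jdp2, Glis1, Esrrb and Sall4: JEGS-Minus-Esrrb, JEGS-Minus-Glis1, JEGS-Minus-Jdp2 and JEGS-Minus-Sall4, each with 1 library on each of days 0 to 7. The JEGS arm, with all 4 factors, has 3 libraries, from days 2, 4 and 6. The treatment entry names all 4 factors in all samples, against the titles, and the RNA levels of the factors follow the titles. Esrrb had 6.18 to 70.5 TPM in the arm without it and at least 594 TPM elsewhere, Glis1 had at most 8.98 TPM against at least 206 TPM, Jdp2 at most 43.5 TPM against at least 278 TPM, and Sall4 at most 7.37 TPM against at least 213 TPM.

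No day of an arm has a second library, and the labels do not call an arm's libraries separate cultures. P-values therefore measure the spread of these libraries around the fit, not the spread between repeated cultures of an arm. That spread may be technical, and it also holds departures of each arm's day course from the fit. Total expected counts were 1266379 to 3608456 per library. They were 1377656 to 1651712 without Esrrb, 1672386 to 2622470 without Glis1, 1865680 to 3333579 without Jdp2, 1939226 to 3608456 without Sall4 and 1266379 to 1682386 in JEGS. Library kits and sequencing runs are named but not assigned to libraries, so a batch cannot be told apart from an arm. The mean fragment length differed as well: it was 200.6 to 204.6 bases without Esrrb, 201.2 to 212.3 without Glis1, 205.7 to 209.4 without Jdp2, 206.8 to 211.7 without Sall4 and 198.5 to 201.9 in JEGS. Of 10 fibroblast markers other than collagens, 9 or 10 had a median of at least 1 TPM in each arm. Myeloid markers summed to at most 24.3 TPM in any library.

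Several collagen genes sit head to head with a partner and are read from one stretch of DNA, and these pairs recur in the results. In the annotation of the GRCm38 build, which is the mm10 build of the files, the start of Col4a3 on the plus strand of chromosome 1 lies 72 bases from the start of Col4a4 on the minus strand. On chromosome 8 the starts of Col4a2 (plus) and Col4a1 (minus) lie 21 bases apart and the first bases of the genes overlap. On the X chromosome 1309 bases separate the starts of Col4a5 and Col4a6. The windows of 250 bases before to 50 bases after the start of transcription, from RefSeq on GRCm38.p6, are shown for both close pairs, 5′ to 3′ on the minus strand. Capitals mark the bases from one annotated start to the other, which is the whole interval shared by the pair.
Col4a4, chr1:82586800-82587099: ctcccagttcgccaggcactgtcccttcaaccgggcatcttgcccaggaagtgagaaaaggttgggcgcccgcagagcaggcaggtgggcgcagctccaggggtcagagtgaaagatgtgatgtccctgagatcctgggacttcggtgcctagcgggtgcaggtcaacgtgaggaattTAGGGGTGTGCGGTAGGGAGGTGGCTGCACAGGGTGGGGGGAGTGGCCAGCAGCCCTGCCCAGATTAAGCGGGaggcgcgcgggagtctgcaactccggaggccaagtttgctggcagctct
Col4a1, chr8:11312777-11313076: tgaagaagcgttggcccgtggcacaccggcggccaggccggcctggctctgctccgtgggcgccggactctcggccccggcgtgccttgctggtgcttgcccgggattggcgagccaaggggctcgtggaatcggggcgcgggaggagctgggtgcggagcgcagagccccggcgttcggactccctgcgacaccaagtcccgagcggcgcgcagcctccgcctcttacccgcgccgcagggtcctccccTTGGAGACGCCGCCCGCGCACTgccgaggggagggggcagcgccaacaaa

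Of the 37 members, 28 had an entry in the RefSeq promoter table, with 31 windows. The windows of the collagens had a median GC content of 60.3%, against 52.7% over all 32851 windows. The windows were searched for 5 short motifs on both strands, and no collagen window held more than 1 of them. The ESRRB element TCAAGGTCA was in 0.423% of all windows and the CRE letters TGACGTCA in 1.79%, and no collagen window held either. The AP-1 letters TGANTCA, which Jdp2 dimers are known to bind, were in 7.81% of all windows and in 1 of the 31, that of Col6a1. The GLIS letters TGGGGGGT were in 1.53% of all windows and in 1 of the 31, that of Col5a1. TATAAA was in 13.6% of all windows and in 4 of the 31, those of Col3a1, Col10a1, Col11a2 and Col13a1. A match is a run of letters in a window and says nothing of binding. Both windows with a match to a factor's motif are shown with the match in capitals.
Col6a1, chr10:76725995-76726294, minus strand: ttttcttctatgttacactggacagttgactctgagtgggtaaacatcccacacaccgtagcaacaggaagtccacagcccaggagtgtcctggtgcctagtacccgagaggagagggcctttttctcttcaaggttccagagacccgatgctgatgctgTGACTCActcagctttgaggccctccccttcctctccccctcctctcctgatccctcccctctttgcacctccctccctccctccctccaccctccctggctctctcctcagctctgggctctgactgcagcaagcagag
Col5a1, chr2:27886175-27886474, plus strand: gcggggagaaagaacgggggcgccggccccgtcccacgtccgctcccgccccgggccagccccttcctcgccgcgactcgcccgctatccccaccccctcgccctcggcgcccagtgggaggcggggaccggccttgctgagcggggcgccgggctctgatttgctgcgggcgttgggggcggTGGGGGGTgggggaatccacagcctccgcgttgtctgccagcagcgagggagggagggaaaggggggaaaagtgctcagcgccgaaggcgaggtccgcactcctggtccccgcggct

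The highest mean levels over all libraries were those of Col4a1 at 335 TPM, Col1a1 at 280.0 TPM, Col1a2 at 234 TPM, Col7a1 at 216 TPM, Col4a2 at 208 TPM and Col18a1 at 167 TPM. Col10a1, a growth plate collagen, was the lowest at 0.405 TPM and was at 0 in all 3 JEGS libraries, the one case of a member at 0 throughout an arm. Collagens together held 4249 TPM on day 0 without Esrrb, 6021 without Glis1, 5233 without Jdp2 and 7353 without Sall4. The lowest later sums were 1133 TPM on day 6 without Esrrb, 684 TPM on day 5 without Glis1, 1917 TPM on day 6 without Jdp2 and 1440 TPM on day 5 without Sall4. In JEGS the sum was 1533, 1098 and 795 TPM on days 2, 4 and 6. The composition changed with the sum: Col1a1, Col1a2 and Col3a1 made up 45.9 to 51.0% of collagen TPM on day 0 and 4.98 to 36.9% in every later leave-out library, and 11.9 to 16.0% in JEGS. In such bulk libraries, fewer fibroblasts and less collagen RNA per cell cannot be told apart.

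The makeup of what was left differed by arm. On day 7 basement membrane chains held 15.7, 41.6, 57.3 and 21.6% of collagen TPM without Esrrb, Glis1, Jdp2 and Sall4, after 15.2, 19.6, 19.9 and 19.3% on day 0. FACITs held 30.7% on day 7 without Esrrb and 5.86, 7.79 and 6.42% without Glis1, Jdp2 and Sall4. Col7a1 and Col26a1 together held 38.6% on day 7 without Sall4, nearly all of it Col7a1 at 637 TPM. Transmembrane collagens held up to 7.07% without Esrrb and at most 0.40, 1.20 and 0.29% without Glis1, Jdp2 and Sall4.

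**Figure D1:**
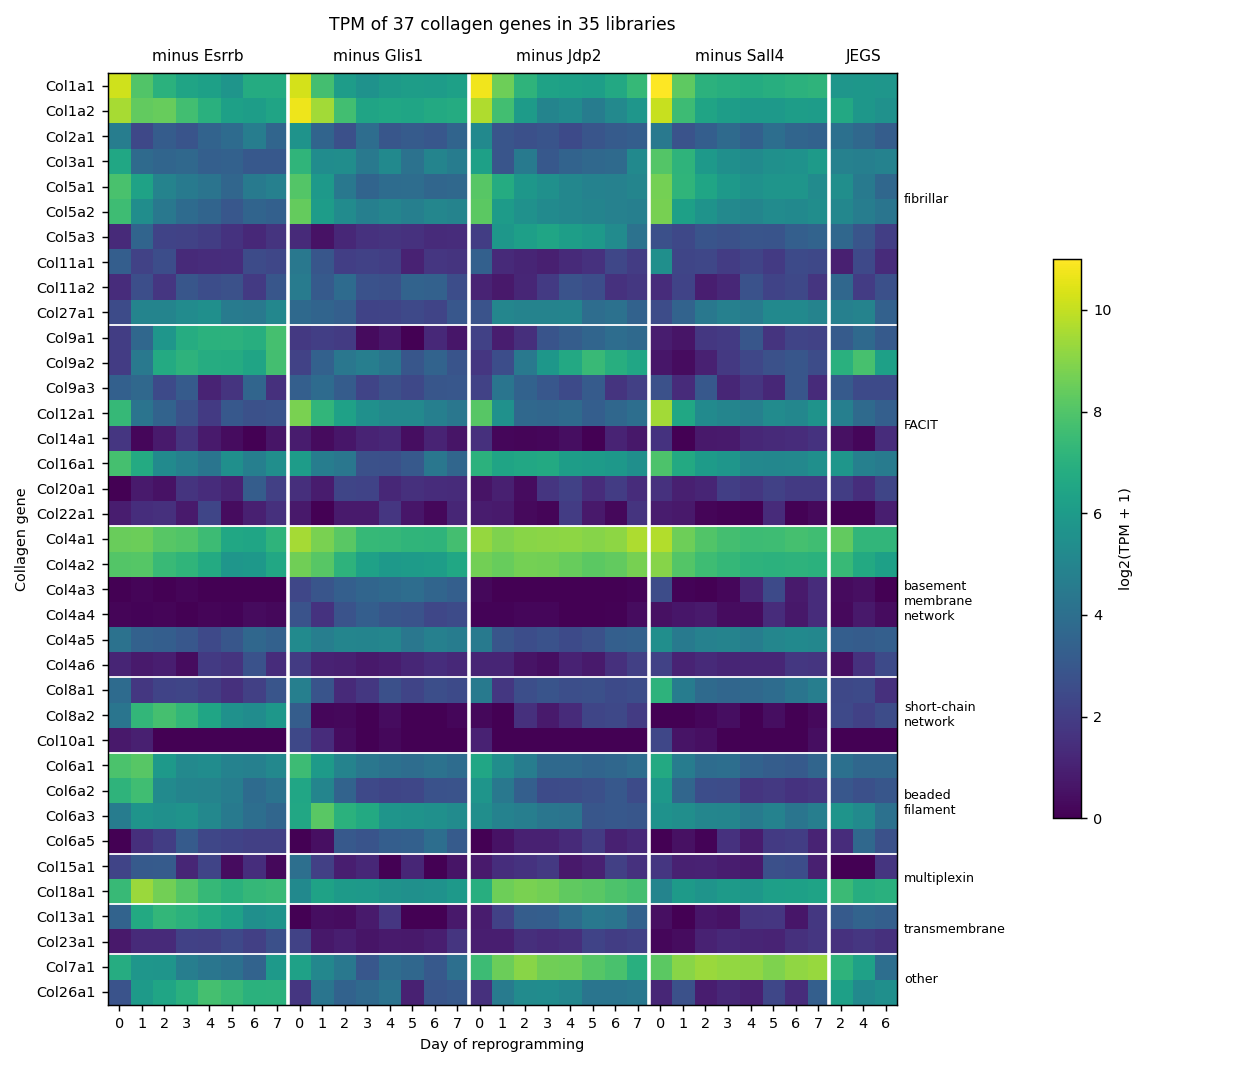
Level of each of the 37 collagen genes as log2(TPM + 1), in color, with genes in rows grouped by structural class and the 35 libraries in columns by arm and day. The left edge of each leave-out arm, day 0, is brightest for the fibrillar genes, with Col1a1 at 1164 to 2037 TPM. Col8a2 is brighter without Esrrb, at 18.4 to 215 TPM, than in any other arm. Col5a3 is brighter without Jdp2 from day 1 on, at 16.8 to 88.3 TPM, than in any other arm.

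Of 10 fibrillar collagens, 7 were already lower on day 1 than on day 0. In the 8 libraries of those days, with arm as a factor, 14 of 37 members (37.8%) were lower on day 1 and 4 (10.8%) were higher by edgeR's quasi-likelihood test, where 6.00% and 5.93% of all 14447 genes tested were called lower and higher. The median log2 difference was -0.52 over the collagens and 0.03 over all genes. This comparison was chosen after the data were seen. The fibrillar ones were Col1a1, Col1a2, Col2a1, Col3a1, Col5a1, Col5a2 and Col11a1. The other 7 were Col8a1, the FACITs Col12a1, Col14a1 and Col16a1, the beaded filament chains Col6a1 and Col6a2, and Col4a5. The calls of Col6a1 and Col6a2 were lost without any 1 library of the arms without Glis1, Jdp2 or Sall4, and that of Col4a5 without either library of the arm without Jdp2.

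Col1a1, the alpha 1 chain of type I collagen, had 257, 208, 377 and 306 TPM on day 1 without Esrrb, Glis1, Jdp2 and Sall4, against 1164, 1248, 1720 and 2037 TPM on day 0. Libraries of the 2 days did not overlap, and the log2 difference was -2.45 ± 0.17 (SE, adjusted p = 1.1e-05). Col8a1, a short-chain collagen of vessel walls and of the layer under the corneal endothelium, had 2.39, 6.20, 2.43 and 23.3 TPM on day 1, against 13.3, 25.6, 22.3 and 138 TPM on day 0, a log2 difference of -2.53 ± 0.24 (adjusted p = 7.3e-05). Its level without Sall4 on day 1 was within the day-0 range of the other arms. Col12a1, a FACIT that binds type I fibrils, differed by -2.42 ± 0.26 and Col3a1, the type III chain of elastic tissues, by -2.15 ± 0.38. Col14a1, another FACIT, had the largest estimate, -2.97 ± 0.86 (adjusted p = 0.044), but its highest level on day 0 was 2.32 TPM and its call was lost in 12 of 15 alternatives.

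Col26a1, Col13a1, Col18a1 and Col6a5 went the other way. Col26a1, a little-studied collagen first found in testis and ovary, had 63.1, 18.3, 22.5 and 5.71 TPM on day 1 without Esrrb, Glis1, Jdp2 and Sall4, against 6.09, 2.31, 1.87 and 1.25 TPM on day 0 (log2 difference 3.14 ± 0.31, adjusted p = 8e-05). It was higher on day 1 in all 4 arms. Col13a1, a transmembrane collagen of cell junctions and the neuromuscular synapse, differed by 3.20 ± 0.55, yet it was at 0 on day 1 without Sall4, against 0.36 TPM there on day 0, and its call was lost on the log2(TPM + pseudocount) scale. Col18a1, the basement membrane collagen that carries endostatin, had 646, 80.8, 382 and 63.0 TPM on day 1, against 171, 36.4, 119 and 30.2 TPM on day 0 (1.41 ± 0.19, adjusted p = 0.00064). Col6a5 was at 0 in all 4 libraries of day 0 and had 28 counts in those of day 1, which is at least 9.33-fold higher, from a floor of 3 counts over the pooled day-0 libraries. Its call was lost in 8 of 12 alternatives.

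Over days 0 to 7, the slope common to the 4 leave-out arms was negative in 18 of 37 members (48.6%) and positive in 5 (13.5%), where 15.8% and 15.4% of all 18135 genes were called negative and positive. The median slope was -0.17 log2 units per day over the collagens and 0.01 over all genes. Of 10 fibrillar genes, 6 had a negative slope, among them Col1a2 at -0.53 ± 0.06 and Col1a1 at -0.48 ± 0.07 per day (adjusted p = 1.1e-07 and 4.3e-06). Of 4 beaded filament chains 3 did as well, with Col6a2 at -0.56 ± 0.06, and so did Col4a1 and Col4a2 at -0.21 ± 0.03 and -0.23 ± 0.03. The steepest estimates were -1.03 ± 0.14 for Col10a1, which rests on 56 counts in all libraries and whose call was lost without day 0, and -0.57 ± 0.07 for Col12a1. Col10a1 reached 1 TPM in 4 libraries, day 0 without Glis1, Jdp2 and Sall4 and day 1 without Glis1. It thus met the member rule only through day 0, so its slope call is not independent of that rule. Col6a5 (0.40 ± 0.09), Col9a2 (0.39 ± 0.09), Col23a1 (0.28 ± 0.04), Col20a1 (0.28 ± 0.06) and Col9a1 (0.27 ± 0.08) had a positive slope, the last a call lost without the day-6 library of the arm without Glis1 and without day 0. In 11 members the highest level of every leave-out arm was on day 0, and in another 11 it was on day 0 in no arm. The shares of all genes with such peaks were not counted, so these counts are not read as a trait of the collagens.

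**Figure D2:**
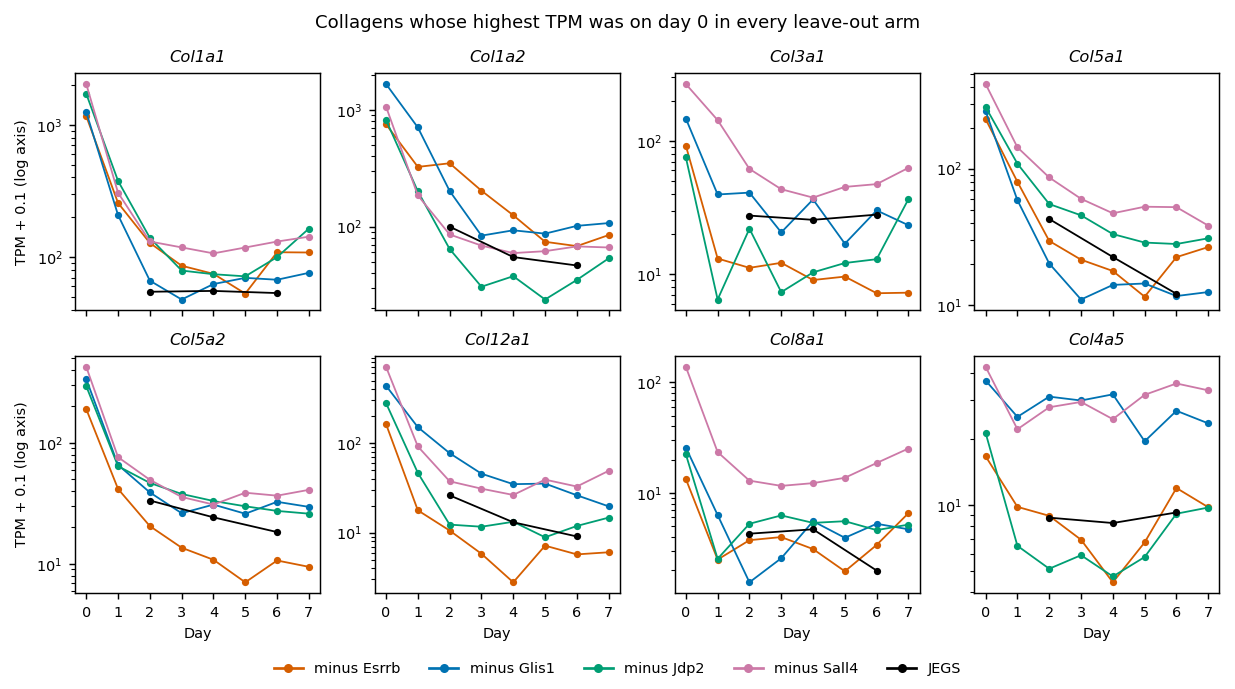
TPM + 0.1 on a log axis against day for 8 of the 11 collagens whose highest level was on day 0 in all 4 leave-out arms, with 1 line per arm and 1 library per point. Col1a1 drops to 208 to 377 TPM on day 1, and Col3a1 and Col8a1 run highest without Sall4 on all 8 days.

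Without day 0, 15 members had a negative slope and 6 a positive one over days 1 to 7, where 12.4% and 13.1% of all 17932 genes were called negative and positive, a fit also added after the data were seen, and 14 and 4 of these were also called in the same direction with day 0. Both type I chains kept a negative slope, of -0.34 ± 0.05 per day for Col1a2 and -0.17 ± 0.05 for Col1a1. The slope of Col3a1 was not called over days 1 to 7, and that of Col2a1, the cartilage fibril chain, was positive at 0.18 ± 0.05 (adjusted p = 0.0045). On days 1 to 7 Col2a1 had 4.25, 8.23, 6.16, 10.3, 13.5, 23.9 and 10.8 TPM without Esrrb, 10.7, 5.41, 14.1, 6.68, 7.84, 7.03 and 10.6 TPM without Glis1, 6.52, 5.44, 6.31, 4.47, 6.53, 7.92 and 8.75 TPM without Jdp2, and 5.97, 8.61, 12.8, 9.46, 14.8, 11.1 and 10.1 TPM without Sall4. In JEGS it had 15.6, 12.3 and 8.51 TPM on days 2, 4 and 6. The 4 leave-out arms overlapped, and in each of them every later library was below its own day-0 level.

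The arms were compared by setting the 8 libraries of each leave-out arm against those of the other 3, with day as a block. The 3 other arms each lack a factor too, and the 4 differences of a gene add up to 0. They are therefore not independent of each other, and they do not give the effect of removing a factor from the full set. Of the 37 members, 33 were called in at least 1 of the 4 comparisons, where 68.1% of all 18135 genes were, and 8 in all 4, where 6.67% of all genes were. Col2a1, Col4a6, Col10a1 and Col15a1 were called in none. The median level was highest without Esrrb for 13 members, without Glis1 for 7, without Jdp2 for 5 and without Sall4 for 12, and the split over all genes was not counted.

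**Figure D3:**
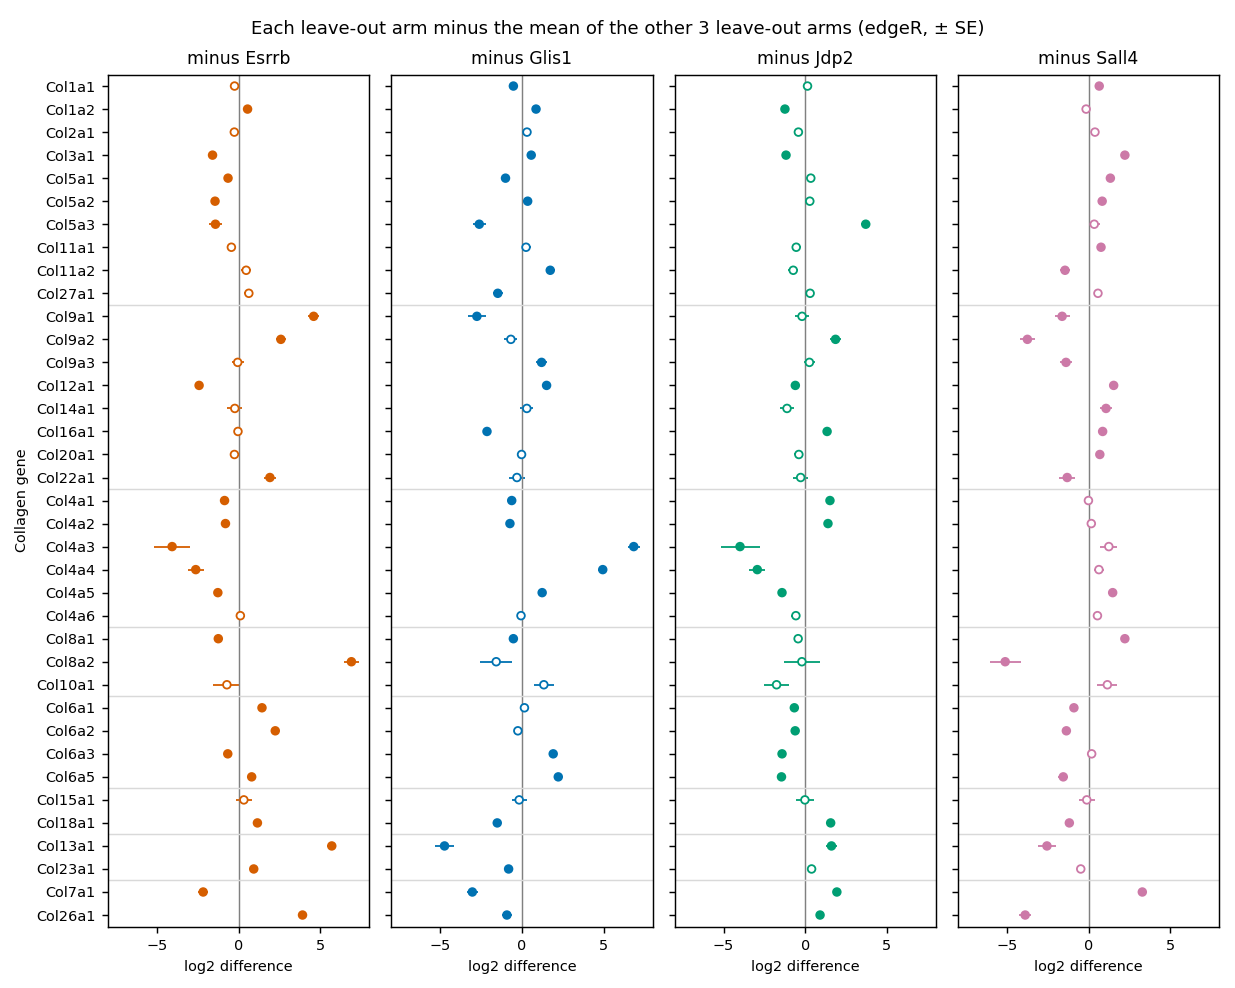
Log2 difference ± SE of each leave-out arm against the mean of the other 3 leave-out arms, for the 37 collagens in rows by structural class, with filled points where the adjusted p was under 0.05. Points lie on both sides of 0 in every panel, from Col8a2 at 6.90 without Esrrb and Col4a3 at 6.84 without Glis1 to Col8a2 at -5.11 without Sall4.

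Without Esrrb, Col8a2, Col13a1, Col9a1 and Col26a1 were higher, and 5 of the 6 type IV chains of basement membrane sheets were lower. Of 37 members, 12 (32.4%) were higher and 13 (35.1%) lower, where 20.9% and 21.9% of all 18135 genes were called higher and lower, and the median was -0.23 against -0.01 over all genes. The lower type IV chains were Col4a1 to Col4a5, and lower too were 4 of 10 fibrillar genes (Col3a1, Col5a1, Col5a2 and Col5a3). Not all of these type IV chains were below each other arm. Col4a1 had a median of 218 TPM without Esrrb, against 186, 547 and 211 TPM without Glis1, Jdp2 and Sall4. Col4a2 had 125 TPM against 85.8, 372 and 147 TPM, and Col4a5 had 9.24 TPM against 28.3, 6.11 and 30.5 TPM. Against JEGS on days 2, 4 and 6, none of the 6 type IV chains passed. Both transmembrane collagens were higher. So were 3 of 4 type VI chains, with Col6a3 lower, and 3 of 8 FACITs, with Col12a1 lower and 4 not passing. Of the 3 short-chain network genes Col8a2 was higher, Col8a1 lower and Col10a1 did not pass.

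Col8a2, the alpha 2 chain of the short-chain type VIII network, had a lowest, median and highest level of 18.4, 71.1 and 215 TPM without Esrrb, against 0, 0.15 and 8.45 TPM without Glis1, 0, 1.73 and 4.16 TPM without Jdp2 and 0, 0.065 and 0.34 TPM without Sall4. Col8a2 was higher in every library without Esrrb than in any library of the other 3 arms. The other members called here overlapped, and the share of all genes without overlap was not counted. Its partner chain Col8a1 was lower, with a median of 3.46 TPM against 4.87, 5.20 and 16.1 TPM (log2 difference -1.25 ± 0.21, adjusted p = 1.7e-05). By median, the type VIII genes were thus opposite at the ends of the order: Col8a1 was highest without Sall4 and lowest without Esrrb, and Col8a2 the reverse. In between they were not opposite, as both had a higher median without Jdp2 than without Glis1. The Col8a2 medians without Glis1 and Sall4 are near the floor.

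Col13a1 had 10.3, 90.1 and 154 TPM as lowest, median and highest without Esrrb, against medians of 0.30, 9.34 and 0.58 TPM without Glis1, Jdp2 and Sall4 (5.70 ± 0.29, adjusted p = 1e-14). It was the highest of the 4 arms on all 8 days. Among the type IX chains, which form a FACIT of cartilage and the eye, Col9a1 had a median of 114 TPM and Col9a2 of 107 TPM without Esrrb, against Col9a1 medians of 1.0, 7.38 and 2.52 TPM and Col9a2 medians of 10.0, 72.4 and 3.30 TPM in the other 3 arms. The log2 difference was 4.59 ± 0.33 for Col9a1 and 2.58 ± 0.31 for Col9a2. The third chain, Col9a3, did not pass, with a median of 6.20 TPM against 6.78, 5.78 and 1.88 TPM, and it overlaps the coding gene Tcfl5, so that its counts are uncertain.

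The type VI chains Col6a1 and Col6a2 were also the highest of the 4 arms on all 8 days. Col6a1 had 26.5, 37.6 and 279 TPM as lowest, median and highest without Esrrb, against medians of 18.2, 13.5 and 12.4 TPM without Glis1, Jdp2 and Sall4 (1.43 ± 0.13). Col6a2 had 13.3, 29.5 and 197 TPM, against medians of 5.90, 6.30 and 3.71 TPM (2.24 ± 0.16). Col26a1 had a median of 127 TPM, against 8.76, 21.5 and 1.49 TPM (3.91 ± 0.24), and Col18a1 one of 173 TPM, against 53.5, 304 and 63.1 TPM (1.15 ± 0.17).

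Lower without Esrrb were Col4a3 and Col4a4, chains of the kidney filter and lung basement membrane, with -4.07 ± 1.11 and -2.63 ± 0.50, and Col12a1 with -2.42 ± 0.19 (adjusted p = 4.8e-11), below all other arms on all 8 days. Col4a3 rests on 2 counts in that arm, against 1057 counts in the other 3 arms, most of them without Glis1, a ratio of CPM of 0.00869 with an exact 95% interval of 0.00105 to 0.0315. Its call was lost without the day-0 library of the arm without Jdp2 or without day 0. Col3a1 had a median of 10.3 TPM against 33.2, 12.5 and 54.4 TPM without Glis1, Jdp2 and Sall4 (-1.60 ± 0.20). Col7a1, the anchoring fibril of skin, was lower by -2.17 ± 0.31.

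Markers of other cell types moved with this arm. The summed level of 10 cartilage and bone markers ran from 35.1 to 129 TPM without Esrrb, against 43.2 to 119, 29.9 to 49.3 and 33.1 to 68.4 TPM without Glis1, Jdp2 and Sall4, and of 9 tested 4 were higher and 2 lower. Bglap (osteocalcin) was at 0 in all libraries without Jdp2 and in JEGS. Sp7, the osteoblast factor, and 1 of the 10 markers, was higher by 5.90 ± 0.30 and Sox5, a cartilage factor, by 2.04 ± 0.25. The 2 lower markers were the cartilage and bone factors Sox9, by -0.94 ± 0.18, and Runx2, by -0.89 ± 0.25. The 6 endothelial markers summed to 50.03 to 145 TPM, against 16.8 to 41.2, 48.1 to 151 and 15.2 to 60.1 TPM, and 3 of the 6 were higher and 1 lower. Epithelial markers had 3 higher and none lower of 7, and fibroblast markers had 2 higher and 2 lower of 10. Primitive endoderm markers had 1 higher and 1 lower of 6, and pluripotency markers had 1 higher and none lower of 6. Over all genes, 20.9% were called higher and 21.9% lower. The part of such cells in the collagen differences was not tested.

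**Figure D4:**
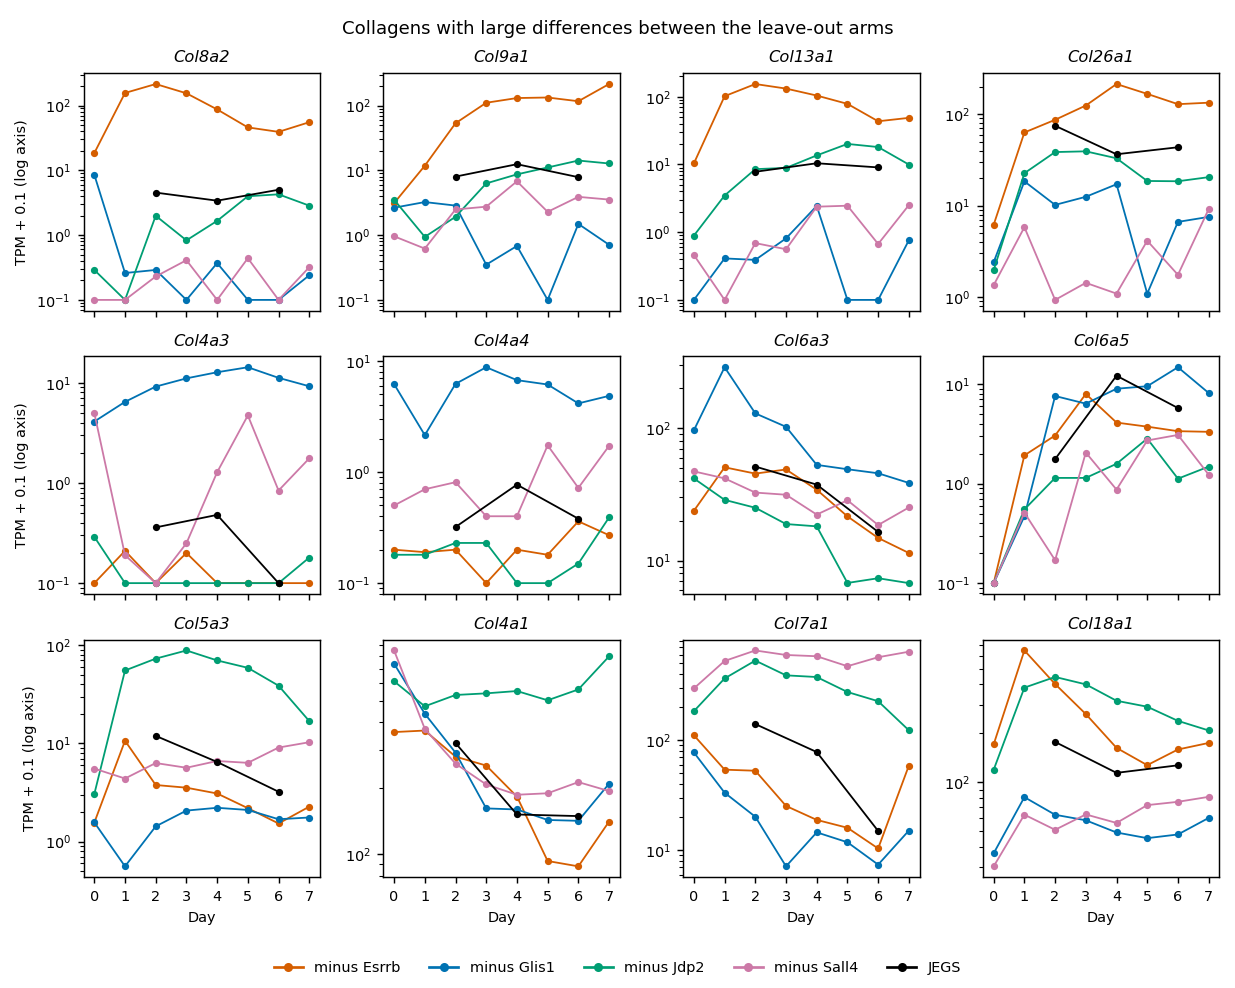
TPM + 0.1 on a log axis against day for 12 collagens, with 1 line per arm and 1 library per point. Col8a2, Col9a1, Col13a1 and Col26a1 run highest without Esrrb on days 1 to 7, Col4a3 and Col4a4 without Glis1, Col5a3 without Jdp2, and Col7a1 without Sall4.

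Without Glis1, the paired genes Col4a3 and Col4a4 were higher and Col13a1 and Col7a1 were lower. Of 37 members, 11 (29.7%) were higher and 14 (37.8%) lower, where 20.0% and 16.3% of all genes were called higher and lower, and the median was -0.17 against 0.01. Type IV divided by gene pair: Col4a3, Col4a4 and Col4a5 were higher, Col4a1 and Col4a2 were lower, and Col4a6 did not pass. Fibrillar genes divided as well, with Col1a2, Col3a1, Col5a2 and Col11a2 higher and Col1a1, Col5a1, Col5a3 and Col27a1 lower. The call of Col5a2 was lost without the day-4 or the day-6 library of this arm.

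Col4a3 had 4.00, 6.35, 9.06, 10.97, 12.6, 14.2, 11.1 and 9.13 TPM on days 0 to 7 without Glis1. It had at most 0.11 TPM without Esrrb, 0.19 TPM without Jdp2 and 4.89 TPM without Sall4. Only days 0 and 5 without Sall4, at 4.89 and 4.62 TPM, were above the lowest library without Glis1. The log2 difference was 6.84 ± 0.37 (adjusted p = 1.3e-14). Col4a4, which shares the interval shown in capitals above, had a lowest, median and highest level of 2.05, 6.07 and 8.68 TPM without Glis1. Its highest levels were 0.26, 0.29 and 1.64 TPM without Esrrb, Jdp2 and Sall4, with no overlap (4.94 ± 0.27, adjusted p = 1.3e-14). Col4a4 reached 1 TPM in 10 libraries, the 8 without Glis1 and days 5 and 7 without Sall4. It thus met the member rule only through this arm, so its calls between arms are not independent of that rule. Col4a5, the partner of Col4a3 and Col4a4 in the same network, comes from the X chromosome. It had a median of 28.3 TPM without Glis1 against 9.24, 6.11 and 30.5 TPM without Esrrb, Jdp2 and Sall4 (1.23 ± 0.14). Without Sall4, where Col4a5 was also high, Col4a3 had a median of 0.96 TPM and Col4a4 of 0.61 TPM.

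Among type VI chains, Col6a3 and Col6a5 were higher without Glis1, by 1.91 ± 0.18 and 2.22 ± 0.23, and Col6a1 and Col6a2 did not pass. Col6a3, the large chain that joins the other 2 in a type VI monomer, had 38.5 to 288 TPM and was the highest of the 4 arms on all 8 days. Lower were Col13a1 by -4.74 ± 0.55, Col7a1 by -3.04 ± 0.32 and Col9a1 by -2.76 ± 0.54. Col13a1 rests on 10 counts in this arm and was at 0 in 3 of its 8 libraries. Col7a1 had a lowest, median and highest level of 7.02, 14.7 and 77.2 TPM, below the other leave-out arms on every day. The 7 epithelial markers summed to 48.9 to 260 TPM here, against 169 to 711, 182 to 1599 and 134 to 286 TPM without Esrrb, Jdp2 and Sall4, with 3 of 7 lower and none higher. Of 9 cartilage and bone markers tested 4 were higher and 1 lower, of 6 endothelial markers 1 was higher and 3 lower, of 6 primitive endoderm markers 2 were higher and 2 lower, and of 6 pluripotency markers 1 was lower. Fibroblast markers had 2 higher and 3 lower of 10. Over all genes, 20.0% were called higher and 16.3% lower. The part of these cells in the collagen differences was not tested.

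Without Jdp2, Col5a3, Col4a1 and Col4a2 were higher and the type VI chains were lower. Of 37 members, 9 (24.3%) were higher and 10 (27.0%) lower, where 14.4% and 9.13% of all genes were called higher and lower, and the median was -0.29 against 0.01. All 4 type VI chains were lower, from -0.62 ± 0.18 for Col6a2 to -1.46 ± 0.30 for Col6a5. Only Col6a3 had its median below each other arm, at 18.4 TPM against 28.9, 74.5 and 29.9 TPM without Esrrb, Glis1 and Sall4. Col6a1 had 13.5 TPM against 37.6, 18.2 and 12.4 TPM, and Col6a2 had 6.30 TPM against 29.5, 5.90 and 3.71 TPM. Col6a5 had 1.04 TPM against 3.2, 7.8 and 0.95 TPM. Against JEGS on days 2, 4 and 6, Col6a3 and Col6a5 were lower, and Col6a1 and Col6a2 did not pass. Of type IV, Col4a1 and Col4a2 were higher and Col4a3, Col4a4 and Col4a5 were lower, the reverse of the split without Glis1, with which this comparison shares libraries.

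Col5a3, a type V chain of connective tissue and fat, had 2.95, 55.1, 72.9, 88.3, 69.8, 58.7, 38.6 and 16.8 TPM on days 0 to 7 without Jdp2, against highest levels of 10.5, 2.11 and 10.2 TPM without Esrrb, Glis1 and Sall4. From day 1 on it was above every library of the other 3 arms (3.70 ± 0.29, adjusted p = 1.6e-10). The other type V chains were not called: Col5a1 had a median of 39.1 TPM against 24.3, 14.1 and 56.2 TPM, and Col5a2 of 35.3 TPM against 12.1, 31.6 and 39.7 TPM. Col4a1, the alpha 1 chain of the ubiquitous basement membrane sheet, held 472 to 797 TPM throughout without Jdp2, against 88.0 to 366, 142 to 738 and 187 to 848 TPM without Esrrb, Glis1 and Sall4 (1.51 ± 0.16). Col4a2, its head-to-head partner, was higher by 1.39 ± 0.15. Col7a1 was higher by 1.93 ± 0.25 and Col9a2 by 1.85 ± 0.32.

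Type I collagen was uneven without Jdp2: Col1a2 was lower, by -1.25 ± 0.19, with a median of 45.4 TPM against 164, 104 and 68.1 TPM without Esrrb, Glis1 and Sall4, while Col1a1 did not pass, with a median of 120 TPM against 108, 68.4 and 131 TPM. Col4a3 was lower by -4.00 ± 1.19 (adjusted p = 0.014) and Col4a4 by -2.94 ± 0.48. Col4a3 rests on 3 counts in that arm against 1056 in the other 3, most of them without Glis1. The ratio of CPM was 0.00769, with an exact 95% interval of 0.00158 to 0.0225. Neither gene stood below the arm without Esrrb in its highest level. Col4a3 had at most 0.19 TPM here against 0.11 TPM there, and Col4a4 at most 0.29 against 0.26 TPM. The call of Col4a3 was lost without the day-1 or the day-3 library of the arm without Esrrb, and without day 1 or day 3. In this arm 6 of 7 epithelial markers, 6 of 6 primitive endoderm markers, 5 of 6 endothelial markers and 6 of 6 pluripotency markers were higher and none of these lists had a lower member. Fibroblast markers had 3 higher and 4 lower of 10, and cartilage and bone markers had 1 higher and 2 lower of 9 tested. Over all genes, 14.4% were called higher and 9.13% lower. Primitive endoderm, which lays down a type IV rich membrane, had markers that summed to 12.1 to 289 TPM here, against 7.46 to 61.2, 26.2 to 71.2 and 11.9 to 30.5 TPM without Esrrb, Glis1 and Sall4, with Sox17 at 0 without Sall4. The part of these cells in the collagen differences was not tested.

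Without Sall4, Col7a1, Col3a1 and Col8a1 were higher, and Col8a2, Col26a1 and the type IX chains were lower. Of 37 members, 12 (32.4%) were higher and 12 (32.4%) lower, where 22.3% and 19.5% of all genes were called higher and lower, and the median was 0.34 against 0.00 over all genes. Of 10 fibrillar genes 5 were higher (Col1a1, Col3a1, Col5a1, Col5a2 and Col11a1) and 1 was lower (Col11a2). All 8 FACITs were called, with Col12a1, Col14a1, Col16a1 and Col20a1 higher and Col22a1 and the 3 type IX chains lower. Single libraries of this arm decided 3 of these calls: that of Col14a1 was lost without day 4, 5, 6 or 7, that of Col20a1 without day 3, 4, 5 or 7 and that of Col22a1 without day 3, 4 or 6. Of type VI, Col6a1, Col6a2 and Col6a5 were lower, of the transmembrane chains Col13a1 was lower and Col23a1 did not pass, and of type IV, Col4a5 was higher and the other 5 did not pass.

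Col7a1 had a lowest, median and highest level of 295, 574 and 654 TPM without Sall4, against medians of 38.9, 14.7 and 319 TPM without Esrrb, Glis1 and Jdp2 (3.28 ± 0.24, adjusted p = 1.4e-11). It was the highest of the 4 arms on all 8 days, and its level there was lowest on day 0. Col3a1 had 266, 143, 61.5, 43.3, 37.5, 45.1, 47.3 and 62.7 TPM on days 0 to 7, above the other leave-out arms on every day (2.22 ± 0.16, adjusted p = 1e-11). Col8a1 was higher by 2.21 ± 0.16 and Col5a1 by 1.33 ± 0.12, again the highest on all 8 days. Col1a1 was higher by 0.65 ± 0.10 (adjusted p = 5.3e-06).

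Lower without Sall4 were Col8a2 by -5.11 ± 0.95, Col26a1 by -3.89 ± 0.37 and Col9a2 by -3.75 ± 0.46. Col8a2 rests on 8 counts in this arm and was at 0 in 4 of its 8 libraries. Col9a2 had 0.28 to 6.60 TPM and was the lowest of the arms on all 8 days, and Col9a1 and Col9a3 were lower by -1.63 ± 0.46 and -1.39 ± 0.39. The 10 fibroblast markers summed to 2543 to 9197 TPM without Sall4, against 1323 to 4582, 1105 to 5325 and 3085 to 6745 TPM without Esrrb, Glis1 and Jdp2, with 4 higher and 1 lower. Cartilage and bone markers had 1 higher and 4 lower of 9 tested. Of the 7 epithelial markers 5 were lower, of the 6 primitive endoderm markers 4, of the 6 endothelial markers 3 and of the 6 pluripotency markers 3, with 1 pluripotency marker higher. Over all genes, 22.3% were called higher and 19.5% lower. The part of such cells in the collagen differences was not tested.

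The 2 chains of type I collagen, which join in the ratio of 2 alpha 1 chains to 1 alpha 2 chain in the protein, did not keep 1 ratio of TPM. The ratio of Col1a1 to Col1a2 was 1.87 to 3.08 in the 8 libraries without Jdp2 and 1.53 to 2.16 without Sall4. It was 0.365 to 1.60 without Esrrb, 0.293 to 0.799 without Glis1 and 0.546 to 1.15 in the 3 JEGS libraries. Every library without Jdp2 was above every library without Esrrb, without Glis1 and of JEGS. The fits give the same picture for the single genes: Col1a2 was higher without Esrrb (0.55 ± 0.18, a call lost without the day-2 or the day-3 library of that arm) and without Glis1 (0.86 ± 0.17), and Col1a1 was lower without Glis1 (-0.53 ± 0.11) and higher without Sall4. The ratio itself was not tested. The ratio of Col4a1 to Col4a2 lay in a narrower range, at 1.34 to 1.78 without Esrrb, 1.57 to 2.65 without Glis1, 1.28 to 1.88 without Jdp2, 1.32 to 1.64 without Sall4 and 1.48 to 1.99 in JEGS. Col4a1 and Col4a2 overlap at their starts, so reads there may be divided between them.

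Other partner chains varied in ratio as well. Col6a1 and Col6a2 join in type VI filaments, and their ratio was 1.15 to 2.00 without Esrrb, 2.02 to 4.52 without Glis1, 1.64 to 3.0 without Jdp2, 1.75 to 4.62 without Sall4 and 1.75 to 2.28 in JEGS. Col9a1 to Col9a2 had a median ratio of 1.05 without Esrrb, 0.116 without Glis1, 0.115 without Jdp2, 1.27 without Sall4 and 0.064 in JEGS. In JEGS and without Jdp2 the type IX transcripts were thus mostly Col9a2. Ratios of Col9a1 without Sall4 and without Glis1 rest on levels of a few TPM.

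**Figure D5:**
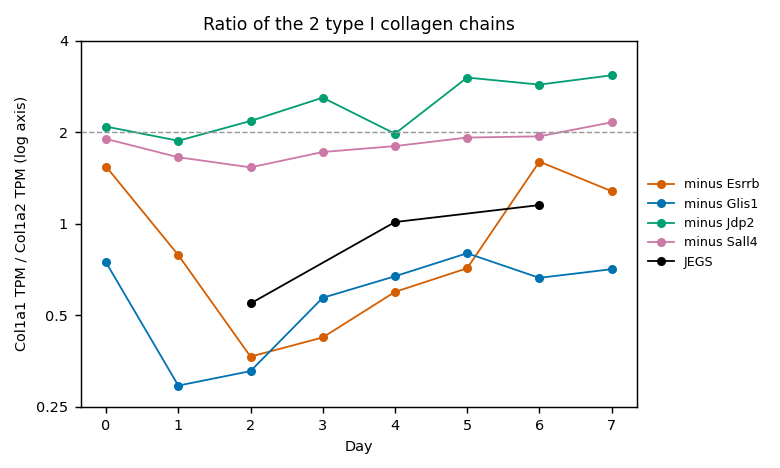
Ratio of Col1a1 TPM to Col1a2 TPM on a log axis against day, with 1 line per arm and 1 library per point, and a dashed line at the protein's chain ratio of 2. Lines without Jdp2 (1.87 to 3.08) and without Sall4 (1.53 to 2.16) run near the dashed line, and those without Glis1 (0.293 to 0.799) and, on days 1 to 5, without Esrrb run below 1.

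The 4 members called in none of these comparisons were Col2a1, Col4a6, Col10a1 and Col15a1. Col2a1 had medians of 10.6, 9.24, 6.53 and 10.6 TPM without Esrrb, Glis1, Jdp2 and Sall4, against 20.7 to 49.8 TPM on day 0, its peak in every arm. Col4a6, the sixth type IV chain, had medians of 1.40, 1.16, 1.16 and 1.35 TPM and at most 5.90 TPM, on day 6 without Esrrb. Col15a1, the multiplexin of vessel and muscle basement membranes, had medians of 2.74, 1.08, 1.81 and 1.04 TPM, and its highest level was 14.9 TPM, on day 0 without Glis1. No difference of these genes passed the test.

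Among the minor fibril chains, which join Col2a1 or type V in thin fibrils, Col11a1 and Col11a2 were called in opposite directions without Sall4. Col11a1 had medians of 3.78, 3.11, 1.73 and 4.02 TPM and was higher without Sall4 (0.76 ± 0.26), a call lost without the day-0 library of that arm. Col11a2 had medians of 5.13, 8.69, 2.21 and 2.93 TPM and was higher without Glis1 (1.73 ± 0.27) and lower without Sall4 (-1.45 ± 0.32). Col27a1 had medians of 30.3, 5.61, 22.4 and 24.8 TPM and was lower without Glis1 (-1.48 ± 0.31). Col16a1, a FACIT of skin and cartilage, had medians of 40.3, 15.5, 76.4 and 48.5 TPM, was higher without Jdp2 (1.33 ± 0.18) and Sall4 (0.85 ± 0.17) and was lower without Glis1 (-2.14 ± 0.21), below the other leave-out arms on all 8 days.

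The low FACITs were near 1 TPM. Col20a1 had medians of 1.35, 1.74, 1.64 and 2.55 TPM, Col22a1 of 1.35, 0.705, 0.695 and 0.16 TPM and Col14a1 of 0.625, 0.695, 0.25 and 1.41 TPM without Esrrb, Glis1, Jdp2 and Sall4. Col23a1, a transmembrane chain, had medians of 3.25, 0.79, 1.78 and 1.17 TPM and was higher without Esrrb (0.92 ± 0.22) and lower without Glis1 (-0.82 ± 0.26), a call lost without the day-5 library of that arm.

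Each leave-out arm was also set against JEGS on days 2, 4 and 6, the direct comparison with the full set of factors. The 4 comparisons share the same 3 JEGS libraries, with 36 members tested. Without Esrrb, 9 members (25%) were higher and 5 (13.9%) lower than in JEGS, where 2.60% and 4.04% of all 16603 genes were called. Without Glis1, 10 (27.8%) were higher and 10 (27.8%) lower, against 10.0% and 9.86% of all genes. Without Jdp2, 7 (19.4%) were higher and 2 (5.56%) lower, against 2.00% and 0.819%. Without Sall4, 10 (27.8%) were higher and 7 (19.4%) lower, against 11.9% and 11.9%.

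Col8a2 had 215, 87.0 and 39.1 TPM on days 2, 4 and 6 without Esrrb, 0.19, 0.27 and 0 TPM without Glis1, 1.89, 1.56 and 4.16 TPM without Jdp2 and 0.13, 0 and 0 TPM without Sall4, against 4.43, 3.30 and 4.91 TPM in JEGS. JEGS thus lay between the arm without Esrrb, at 4.32 ± 0.44 (adjusted p = 4.4e-05), and the arms without Glis1, at -4.55 ± 0.85, and without Sall4, at -6.13 ± 0.96. Col13a1 had the same order, with 154, 104 and 43.4 TPM without Esrrb, 0.29, 2.34 and 0 TPM without Glis1 and 0.59, 2.28 and 0.57 TPM without Sall4, against 7.70, 10.3 and 8.95 TPM in JEGS. Its differences from JEGS were 3.26 ± 0.45, -4.17 ± 0.75 and -3.24 ± 0.63.

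Col9a2 was as high in JEGS, at 124, 222 and 75.4 TPM, as without Esrrb, at 105, 109 and 85.4 TPM, and its difference there did not pass, while it was lower without Glis1 (-3.27 ± 0.55) and without Sall4 (-5.20 ± 0.63). Col9a1 behaved differently from its partner: it was higher without Esrrb than in JEGS by 3.25 ± 0.42, with 53.3, 131 and 117 TPM against 7.91, 12.4 and 7.75 TPM. Col26a1 was higher without Esrrb by 1.39 ± 0.35 and lower without Glis1 by -2.62 ± 0.40 and without Sall4 by -5.08 ± 0.49.

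Col4a3 and Col4a4 were higher without Glis1 than in JEGS, by 5.76 ± 0.73 and 4.17 ± 0.49, and Col11a2, a minor fibril chain of cartilage, by 2.67 ± 0.61. In TPM Col11a2 differed less, with 13.3, 5.38 and 9.74 without Glis1 against 11.65, 2.9 and 5.39 in JEGS on days 2, 4 and 6. Its estimates over the alternatives ran from 0.545 to 3.221. The call was lost with both pseudocounts of the log2(TPM + pseudocount) scale and without day 4. Without Jdp2, Col5a3 was higher by 3.06 ± 0.32, with 72.9, 69.8 and 38.6 TPM against 11.8, 6.37 and 3.12 TPM, Col7a1 by 2.10 ± 0.29 and Col16a1, a FACIT, by 1.78 ± 0.25, and Col6a5 (-2.11 ± 0.43) and Col6a3 (-1.19 ± 0.27) were lower. Without Sall4, Col7a1 was higher by 3.10 ± 0.30, Col8a1 by 2.15 ± 0.39, Col4a5 by 1.85 ± 0.26 and Col3a1 by 1.79 ± 0.22. Col1a1 was higher than in JEGS without Esrrb (0.79 ± 0.19), without Jdp2 (0.85 ± 0.19) and without Sall4 (1.29 ± 0.19), and Col3a1 was lower without Esrrb (-0.98 ± 0.24) and higher without Glis1 (0.82 ± 0.22). Without Esrrb, Col22a1, a FACIT of muscle and tendon junctions, was called higher (4.23 ± 1.12) and Col7a1 (-1.78 ± 0.30), Col12a1 (-1.69 ± 0.29) and Col5a3 (-1.53 ± 0.39) lower. Col22a1 rests on 1 JEGS count against 25 without Esrrb, a ratio of CPM of 24.6 with an exact 95% interval of 4.03 to 1010, and its call was lost in 10 of 26 alternatives.

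The call of Col1a1 without Esrrb was lost without either library of day 2 or of day 6 in this pair of arms, and that of Col3a1 without the day-4 or day-6 library of JEGS or the day-2 or day-6 library without Esrrb. The estimates over all alternatives were between 0.69 and 1.06 for Col1a1 and between -1.58 and -0.71 for Col3a1. The calls of Col5a3 and Col26a1 without Esrrb were lost in 9 and 8 of 26 alternatives, those of Col6a5 and Col6a3 without Jdp2 in 8 each, that of Col3a1 without Glis1 in 7 and that of Col1a1 without Jdp2 in 6, single libraries of either arm among them each time. Without Jdp2, the calls of Col16a1 and Col7a1 were lost in 4 and 2 of 26, both without day 4 and without the day block. That of Col16a1 was also lost with both pseudocounts of the log2(TPM + pseudocount) scale, and its estimates ran from 1.145 to 2.169.

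These comparisons rest much on day 4. Without that day, the members called were 4 without Esrrb, 8 without Glis1 and 0 without Jdp2 by edgeR, with 14, 21 and 11 at an unadjusted p under 0.05, and the genes called overall were 72, 841 and 2. The count without Esrrb was also 9 without day 2 and 9 without the day-6 library of that arm. On the log2(TPM + 1) scale of limma the split of higher to lower calls was 7 to 2 without Esrrb, 6 to 10 without Glis1 and 6 to 0 without Jdp2. The 6 pluripotency markers summed to 5.69 to 61.7, 1.26 to 24.9, 7.08 to 369 and 2.99 to 36.97 TPM over all days without Esrrb, Glis1, Jdp2 and Sall4, against 136 to 1561 TPM in the JEGS libraries. The part of these cells in the collagen differences was not tested.

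Day slopes differed between the 4 leave-out arms for 5 of 37 members (13.5%) by a test of equal slopes, where 8.96% of all 18135 genes were called: Col8a2, Col9a1, Col4a1, Col6a3 and Col27a1. Col4a1 fell with day by -0.33 ± 0.06 per day without Esrrb, -0.29 ± 0.06 without Glis1 and -0.25 ± 0.06 without Sall4, and its slope without Jdp2 was 0.02 ± 0.06 (F = 7.58, adjusted p = 0.015). That call was lost without the day-7 library of the arm without Jdp2, without day 1 and without day 6. Col9a1 had slopes of 0.63 ± 0.11 without Esrrb and 0.53 ± 0.13 without Jdp2, against -0.34 ± 0.18 without Glis1 and 0.27 ± 0.15 without Sall4 (F = 7.80, adjusted p = 0.014), a call lost without day 1. Col8a2 had -1.44 ± 0.28 without Glis1 and 0.48 ± 0.18 without Jdp2 (F = 10.9, adjusted p = 0.003), and that call was lost without the day-0 library of the arm without Glis1, where it had 8.45 TPM, with at most 0.27 TPM on later days, and on the log2(TPM + pseudocount) scale. Col6a3, with -0.51 ± 0.07 without Jdp2 and -0.14 ± 0.06 without Sall4, and Col27a1, a fibrillar chain of cartilage, with -0.19 ± 0.09 without Glis1 and 0.28 ± 0.09 without Sall4, lost the call in 17 and 28 of 48 alternatives.

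The count of unequal slopes moved with single libraries and days. It was 14 without day 0, 1 without day 1, 2 without day 6, and 3 without each of days 2, 3, 4 and 5. Without 1 library it was 10 (day 0 without Esrrb), 11 (day 0 without Jdp2), 8 (day 7 without Glis1), and 3 for days 1, 2, 6 and 7 without Jdp2 and day 1 without Sall4.

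Genes that make and handle collagen were followed in 6 lists. As given above, 15.8% of all genes had a negative and 15.4% a positive common day slope. Of 9 genes for folding and export, 7 had a negative day slope and none a positive one, with Fkbp10, a collagen chaperone, at -0.43 ± 0.04 per day. Of 15 genes for hydroxylation and glycosylation of chains, 8 were negative and 1 positive. Of 8 fibril partners, 5 were negative, with Bgn (biglycan) at -0.45 ± 0.03, and of 8 receptors, 5 were negative, with Itgb1 at -0.18 ± 0.02. Serpinh1, the collagen chaperone HSP47, was lower on day 1 than on day 0 by -1.45 ± 0.18.

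A list of 8 genes held 6 proteases that trim collagen ends and their enhancers Pcolce and Pcolce2. Without Esrrb 5 of the 8 were lower and none higher, where 21.9% of all genes were lower, with Bmp1, which removes the tail of fibrillar procollagen, at -2.40 ± 0.24 and its enhancer Pcolce at -1.70 ± 0.19. Without Sall4 6 of 8 were higher and none lower, where 22.3% of all genes were higher, with Tll1, a relative of Bmp1, at 2.00 ± 0.29. Without Glis1 3 were higher and 3 lower, where 20.0% and 16.3% of all genes were, with Adamts2, which removes the front end of procollagen, at 2.92 ± 0.30, and without Jdp2 3 were higher and 3 lower, where 14.4% and 9.13% of all genes were, with Adamts14 at 2.35 ± 0.19.

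Receptors were higher without Sall4 in 5 of 8, with none lower, where 22.3% of all genes were higher and 19.5% lower. Without Esrrb 1 of 8 was higher and 4 were lower, where 20.9% and 21.9% of all genes were. Itga11, an integrin chain for fibrillar collagen, was higher without Esrrb (2.72 ± 0.35) and without Sall4 (1.79 ± 0.35) and lower without Glis1 (-5.17 ± 0.55). Itga1, another collagen integrin chain, was higher without Glis1 by 2.00 ± 0.16. Folding and export genes were higher without Jdp2 in 5 of 9, with 1 lower, where 14.4% and 9.13% of all genes were. Among regulators, Ccn2, a matrix growth factor, was higher without Sall4 by 3.27 ± 0.17, where 5 of 10 were higher and 3 lower, beside 22.3% and 19.5% of all genes. Sp7 was lower there by -4.55 ± 0.61.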

How the data were processed

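RNA was sequenced in 35 libraries. Per the file headers, the authors deposited RSEM gene tables with an expected count, not normalized, and a TPM value per gene. The submitters' processing notes name bcl2fastq, Bowtie2, RSEM and mm10. Versions, the annotation release and the strand setting are not given in the sources used here, so counts of overlapping genes (Col10a1, Col18a1, Col9a3, Col4a1, Col4a2) are uncertain. Symbols were matched for 54723 of 54752 identifiers.

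Rounded expected counts were tested with edgeR 4.0.16 (R 4.3.3): TMM scaling, a minimum of 1 CPM in 3 libraries of the fit, quasi-likelihood F test, two-sided, Benjamini-Hochberg over all genes, threshold 0.05. Day was a block and arm a factor in the 32 leave-out libraries and in the 15 libraries of days 2, 4 and 6. Slopes were fitted per arm. Scripts were tested on simulated data. DESeq2 1.42.0 and limma 3.58.1 were alternatives. Intervals cover counting error only. Overlap and day ranks use TPM.

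Members, lists and tests were chosen with earlier results of these data known, among them those of Col8a2, Col9a1 and Col4a3. Named are these with Col1a1 and Col3a1, up to 3 members in each direction per comparison, 2 per structural class, partner chains and up to 2 genes per pathway list and arm. Other genes named, the comparison of days 1 and 0 and the slope of days 1 to 7 were chosen after their values were seen.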

Additional observations from a re-analysis of the deposited data

Results flagged for a closer look

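Within an arm the 8 libraries are days, not replicates. In 31 of 148 combinations of a collagen and an arm, 1 library stood far from the other 7. The nominal rate of such flags is about 1 in 20, but it takes the libraries as alike, which days of a course are not. The share flagged over all genes was not counted, so 31 is not a trait of the collagens. Of these, 28 were on day 0, in 17 genes, with 24 high and 4 low.

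Fibrillar genes on day 0 were high. Col1a1 had 1248 TPM without Glis1 and 2037 TPM without Sall4, where the next highest days had 208 and 306 TPM, and Col1a2 had 1072 TPM without Sall4. Col2a1 had 49.8 TPM without Glis1 and 36.7 TPM without Jdp2. Col3a1 had 92.1 TPM without Esrrb and 147 TPM without Glis1. Col5a2 had 336 TPM without Glis1, 295 TPM without Jdp2 and 425 TPM without Sall4. Col11a1 had 43.3 TPM without Sall4.

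Other collagens were high on day 0 as well. Col12a1 had 163 TPM without Esrrb, 279.6 TPM without Jdp2 and 711 TPM without Sall4. Col8a1 had 25.6 TPM without Glis1, 22.3 TPM without Jdp2 and 138 TPM without Sall4. Col8a2 had 8.45 TPM without Glis1. Col10a1 had 1.08 TPM without Jdp2 and 4.03 TPM without Sall4. Col4a1 had 848 TPM without Sall4, Col4a5 21.2 TPM and Col4a3 0.19 TPM without Jdp2, and Col6a1 100 TPM without Sall4.

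Low on day 0 were Col26a1, with 6.09 TPM without Esrrb and 1.87 TPM without Jdp2, Col27a1, with 4.74 TPM without Esrrb, and Col7a1, with 295 TPM without Sall4. The other 3 were Col5a3, at 10.5 TPM on day 1 without Esrrb (high) and 0.46 TPM on day 1 without Glis1 (low), and Col13a1, at 2.34 TPM on day 4 without Glis1 (high).

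Day slopes that differed between the leave-out arms had F values of 10.85 for Col8a2, 7.80 for Col9a1, 7.58 for Col4a1, 5.91 for Col6a3 and 5.49 for Col27a1.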

How the results depend on the processing

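Of 3510 recomputed values, no named collagen changed sign: 2913 kept their call and 179 lost it. Of the counts of called collagens, 388 stayed within 1.5 times and 30 did not. Without the day block (the fit with no replicate block), the counts were 14 without Glis1, 11 without Jdp2 and 14 without Sall4 against the other leave-out arms, and 1 without Jdp2 against JEGS. Limma on log2(TPM + 1) and on log2(TPM + 0.1) gave 9 without Esrrb against JEGS and 2 unequal slopes, and with 0.1 it gave 5 without Jdp2 against JEGS, where no filter on low counts gave 15. Leaving out a library or a day gave 4 to 15, 8 to 20 and 0 to 12 without Esrrb, Glis1 and Jdp2 against JEGS, and 1 to 14 unequal slopes. Without Jdp2 the 0 came without day 4 by edgeR, with 11 at an unadjusted p under 0.05.

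The TPM scale shifted the median of all genes to -0.10 without Glis1 against JEGS, where edgeR gave 0.01. It also moved the share of higher calls over all genes to 42.6% without Glis1 and 41.0% without Sall4 against the other leave-out arms, where edgeR gave 55.1% and 53.4%, while the collagens stood at 8 higher and 13 lower and at 10 and 10. Against JEGS these shares were 40.1% without Glis1 and 39.3% without Sall4, where edgeR gave 50.5% and 50.2%. The low collagens Col4a3, Col10a1, Col14a1 and Col22a1 are limited by depth, with 1 count worth 0.277 to 0.79 CPM.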
